A study of Mus musculus with 12 samples.

Results

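Expression of 10 genes of fatty acid synthesis and desaturation was followed in mouse hepatocyte spheroids over culture: Acly, Acaca, Fasn, Elovl5, Elovl6, Scd1, Fads1, Fads2, Srebf1 and Thrsp. The genes were taken from a list by name, and each was read from its probe set in the deposited table. Of these 10 genes 9 had a probe set, among 11861 genes in all, and Srebf1, which encodes the transcription factor SREBP-1, was not analysed here. Spheroids are compact aggregates that liver cells form on a surface to which they cannot attach. They were made from 4 frozen preparations of primary hepatocytes of C57BL/6 mice, an inbred strain, 2 from males and 2 from females, each preparation a pool of cells from 3 mice. RNA from every preparation was read on an array at culture day 1, day 7 and day 14, so that 12 arrays formed 6 groups of sex and day with 2 arrays each. The labels name no transgene, deletion or drug for any group, and the age of the mice is not given in the sources used here. Pooling limits the design: the spread between preparations is a spread between pools, not between single animals.

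Liver cells turn surplus carbohydrate into fat. Citrate leaves the mitochondria and is split to acetyl-CoA by ATP citrate lyase (Acly), acetyl-CoA carboxylase 1 (Acaca) makes malonyl-CoA from it, and fatty acid synthase (Fasn) joins these units into palmitate. Elongases (Elovl5, Elovl6) lengthen fatty acids, and desaturases add double bonds: stearoyl-CoA desaturase (Scd1) makes monounsaturated fatty acids, while the delta-5 and delta-6 desaturases (Fads1, Fads2) act in turn on the route from essential fatty acids to arachidonic and docosahexaenoic acid. Insulin acting through SREBP-1, glucose acting through ChREBP (Mlxipl) and oxysterols acting through LXR raise transcription of many of these genes, and Thrsp (Spot 14) is a small protein of lipogenic tissues that responds to thyroid hormone and carbohydrate.

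Fads1 and Fads2, which encode the desaturases of polyunsaturated fatty acid synthesis, rose over the first culture week and were still above day 1 at day 14. Thrsp was lower at day 14 than at day 1. That fall passed in the main limma fit but not with the preparation as a block (limma adjusted p = 0.0518). The synthesis genes Acly, Acaca and Fasn, the elongases and Scd1 passed no test between days in the main fit. At day 1 all 9 genes stood lower in both male preparations than in both female preparations, a gap that was smaller at day 14. No gene passed the adjusted threshold for it in the main limma fit, while some did under other settings of the fit.

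The promoters of 3 genes are shown because these carry the main patterns: Fads2 rose most, Thrsp fell, and Fasn had the widest gap between the sexes at day 1. The sequences are the 250 bases before the start site that the RefSeq promoter table (GRCm38.p6) gives for each gene, and each is printed 5′ to 3′ on the strand of its gene. For Fads2 and Thrsp that site is the outermost annotated start of the gene, while for Fasn it lies 619 bases inside the annotated gene. Fads2 lies on the minus strand at chr19:10101504-10101753, Thrsp on the minus strand at chr7:97417551-97417800 and Fasn on the minus strand at chr11:120824548-120824797. Capitals mark matches to the GC box GGGCGG in Fads2 and to the NF-Y box CCAAT in Thrsp and Fasn, each searched on both strands, so that the reverse complement ATTGG is also in capitals.
Fads2: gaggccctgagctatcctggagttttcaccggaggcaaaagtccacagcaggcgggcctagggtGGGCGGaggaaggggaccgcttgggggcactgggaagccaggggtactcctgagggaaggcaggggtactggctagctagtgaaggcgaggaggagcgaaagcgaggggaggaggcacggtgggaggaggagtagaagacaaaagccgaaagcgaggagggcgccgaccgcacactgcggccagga
Thrsp: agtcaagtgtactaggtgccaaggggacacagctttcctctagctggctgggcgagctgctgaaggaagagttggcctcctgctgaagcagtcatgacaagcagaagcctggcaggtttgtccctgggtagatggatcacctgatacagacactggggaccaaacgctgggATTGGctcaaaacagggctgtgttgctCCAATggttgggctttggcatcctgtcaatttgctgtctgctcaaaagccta
Fasn: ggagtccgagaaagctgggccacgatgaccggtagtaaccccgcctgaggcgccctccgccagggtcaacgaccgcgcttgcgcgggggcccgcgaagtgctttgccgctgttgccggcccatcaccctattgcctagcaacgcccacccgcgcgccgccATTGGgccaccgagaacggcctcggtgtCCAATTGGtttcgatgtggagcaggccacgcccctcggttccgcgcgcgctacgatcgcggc

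RefSeq promoters were matched for 7 of the 9 measured genes (not for Fads1 and Scd1), and 6 motifs were searched in them and in all 32851 promoter windows of the same length. For 2 of the 7 the window lay inside the annotated gene, Fasn (above) and Acaca (65803 bases from the outermost start), and the other 5 lay before the outermost start. The NF-Y box CCAAT was found in 3 of the 7 (Elovl5, Fasn and Thrsp) and in 33.8% of all windows. The GC box GGGCGG, the letters bound by Sp1, was found in 2 of the 7 (Acly and Fads2) and in 32.7% of windows. Elovl5 alone among the 7 held the E-box CACGTG, which 6.02% of windows held. The sterol element TCACNCCAC was in 0 of the 7 and 1.05% of windows, and the direct repeats DR1 and DR4 of the nuclear receptor letters AGGTCA were in 0 of the 7 and in 0.0335% and 0.0152% of windows. Over the 5 windows before an outermost start, the NF-Y box was in 2, the GC box in 2 and the E-box in 1. In the Fasn window the CCAAT match and the reverse match that follows it share 2 bases. A match is a string of letters, not a measured binding site. Fads1 and Fads2 are neighbours on chromosome 19 in the same annotation, with 0 protein-coding genes between them.

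All values are log2 levels as deposited, 1 probe set per gene, and ± on a level is the SD over preparations. Probe sets differ in how strongly they bind, so levels are compared between samples and never between genes. Array medians lay between 7.47 and 7.53. The 9 hepatocyte markers, among them albumin (Alb) and Hnf4a, were all measured, and the lowest value of any of them on any array was 9.49. Their summed level, as a log2 value, lay between 15.01 and 15.18 on every array. Markers near the top of the deposited scale weigh most in that sum, such as Alb (12.71 to 12.78) and Apoa1 (12.55 to 12.70). Changes there may be understated, and the lower-lying Asgr1 ran from 9.49 to 10.41. Of the 9 markers 0 passed a limma test between days, with 1 at an unadjusted p under 0.05 in each day comparison. Of 7 adipocyte markers 1 had a probe set, the fatty acid carrier Fabp4. The markers of other liver cells are given after the results on the sexes. In bulk RNA, fewer cells of a type and less RNA per cell cannot be told apart.

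**Figure D1:**
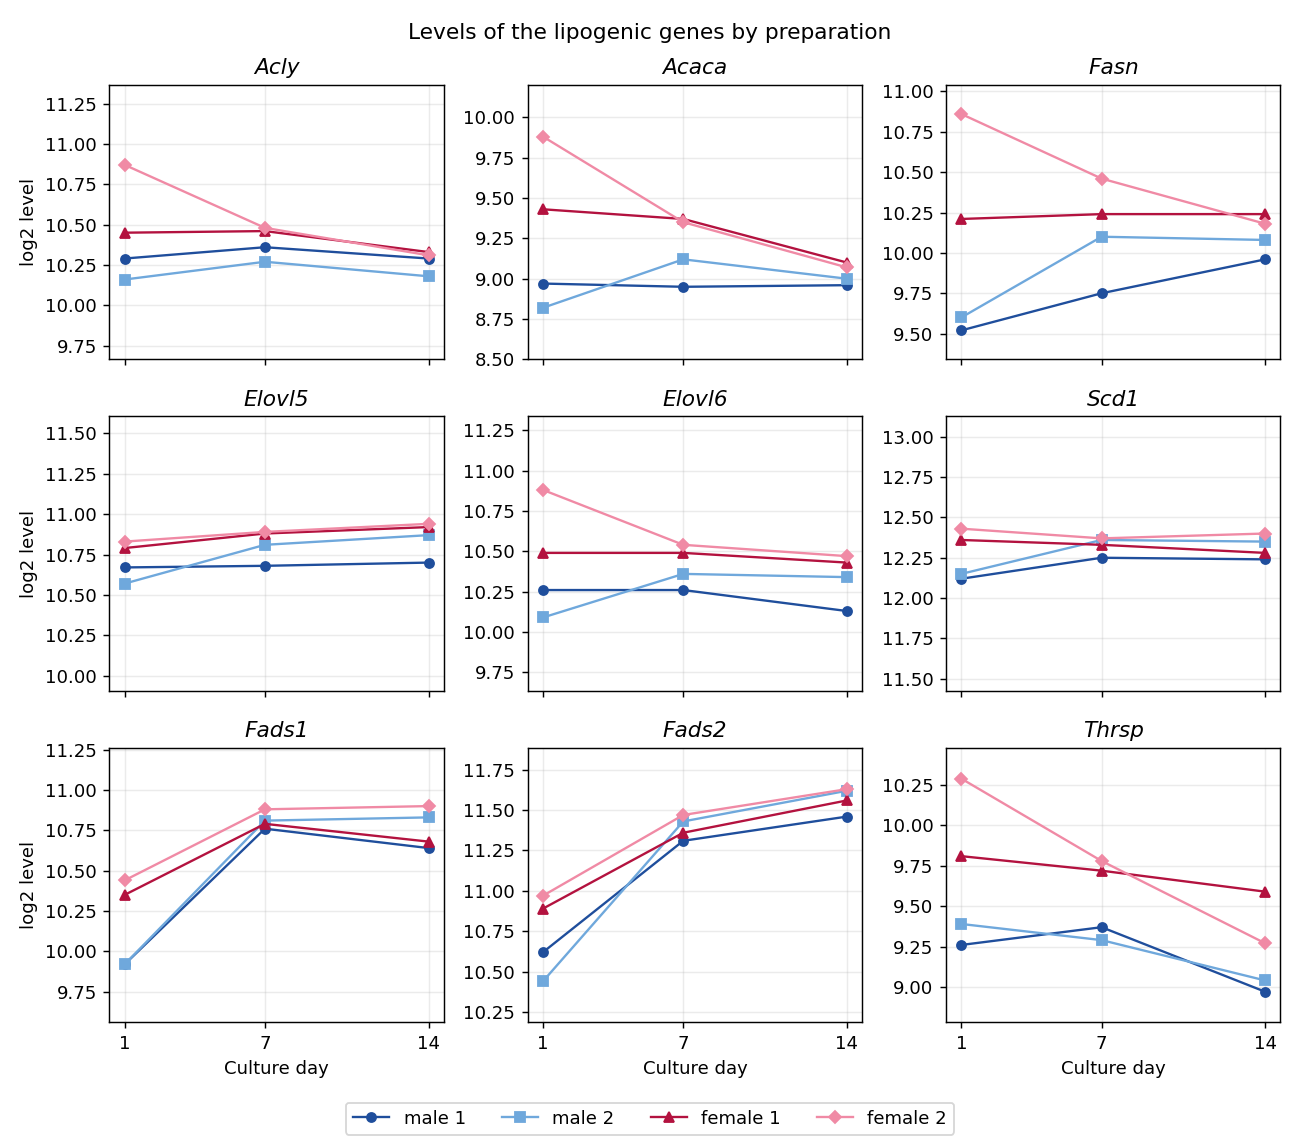
Levels of the 9 measured genes (vertical axis, deposited log2 level, each panel spanning the same height) at culture days 1, 7 and 14 (horizontal axis) in the 4 preparations, 1 point per array. Fads1 and Fads2 climb in all 4 lines between day 1 and day 7, Thrsp ends lower in all 4, and the male lines start below the female lines in every panel.

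The question of the day comparisons is how the cells change as spheroids age. Fads1 stood at 9.92, 9.92, 10.35 and 10.44 at day 1 in male preparations 1 and 2 and female preparations 1 and 2. It stood at 10.76, 10.81, 10.79 and 10.88 at day 7, and at 10.64, 10.83, 10.68 and 10.90 at day 14, in the same order. Every value at day 7 and day 14 lay above every value at day 1. Fads2 stood at 10.62, 10.44, 10.89 and 10.97 at day 1, at 11.31, 11.43, 11.36 and 11.47 at day 7 and at 11.46, 11.62, 11.56 and 11.63 at day 14. Its days 1 and 7 did not overlap either, and every preparation was higher again at day 14 than at day 7. How many of all genes show no overlap between days, or the same direction in every preparation, is not given here. Such patterns are therefore descriptions only, here and below.

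Between day 1 and day 7, 2 of the 9 genes passed (limma, two-sided, Benjamini-Hochberg adjusted p under 0.05 over all genes), beside 4.72% of all 11861 genes in either direction and 2.74% as rises. Fads1 rose by 0.66 ± 0.07 (SE of the limma fit, 4 preparations), or 1.58-fold, with an adjusted p of 0.00353. Fads2 rose by 0.66 ± 0.07, also 1.58-fold, with an adjusted p of 0.00336 in the same limma fit. Both rises were seen in 4 of 4 preparations, and they were between 0.84 and 0.90 (Fads1) and between 0.69 and 0.99 (Fads2) in the male preparations against 0.44 to 0.45 and 0.47 to 0.50 in the female ones. Neither call held when any 1 preparation was left out: without male 1, male 2, female 1 and female 2 in turn the limma adjusted p was 0.0821, 0.074, 0.055 and 0.0549 for Fads1 and 0.0539, 0.0663, 0.0605 and 0.0635 for Fads2, with the rise still between 0.58 and 0.74. With all genes counted, 40 to 513 passed with 1 preparation or 1 array left out, against 560 in all 12 arrays.

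The other 7 genes did not pass between day 1 and day 7. Their changes ran from -0.15 (Thrsp) to 0.10 (Elovl5), and the 95% intervals left room for changes of up to 0.41 in either direction. Elovl5, which elongates polyunsaturated fatty acids between the steps of Fads2 and Fads1, was higher in 4 of 4 preparations by 0.01 to 0.24, with a limma adjusted p of 0.454. The median change over the 9 genes was 0.06, beside 0.00 over all genes. At an unadjusted p under 0.05 there were 2 of 9, Fads1 and Fads2, beside 19.5% of all genes.

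Between day 7 and day 14, 0 of the 9 genes passed the limma test, beside 0.489% of all genes. At an unadjusted p under 0.05 there were 2 of 9, beside 13.7% of all genes: Fads2, higher by 0.17 ± 0.07, and Thrsp, lower by 0.32 ± 0.11. Both had the same sign in 4 of 4 preparations, and their limma adjusted p-values were 0.342 and 0.253. Fads1 differed by -0.05 ± 0.07, with a 95% interval of -0.22 to 0.12.

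Between day 1 and day 14, 3 of the 9 genes passed, 2 higher and 1 lower, beside 14.4% of all genes (7.59% higher and 6.8% lower). Fads2 rose by 0.83 ± 0.07, or 1.78-fold (limma adjusted p = 0.00033), and Fads1 by 0.61 ± 0.07, or 1.52-fold (limma adjusted p = 0.00138). Leaving out any 1 preparation kept both calls. Day 1 arrays serve both day comparisons, so these rises are not independent of those at day 7.

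Thrsp, the Spot 14 gene, stood at 9.26, 9.39, 9.81 and 10.29 at day 1 in male 1, male 2, female 1 and female 2. It stood at 9.37, 9.29, 9.72 and 9.78 at day 7 and at 8.97, 9.04, 9.59 and 9.27 at day 14. All 4 preparations were lower at day 14 than at day 1, though female 1 at day 14 was still above both males at day 1. Thrsp fell by 0.47 ± 0.11 from day 1 to day 14, or 1.39-fold, with a limma adjusted p of 0.0262. With the preparation as a block the fall was the same and the limma adjusted p was 0.0518. The call was lost without male 1, male 2 or female 2 (limma adjusted p = 0.189, 0.197 and 0.121), and without female 2 the fall was 0.27. Of the single arrays, the call was lost without male 1 at day 1 or day 14 (limma adjusted p = 0.0543 and 0.0773), male 2 at day 1 or day 14 (0.0826 and 0.0571) or female 2 at day 1 or day 14 (0.0523 and 0.0804).

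The genes of palmitate synthesis passed no test between day 1 and day 14. Fasn, the synthase itself, differed by 0.06 ± 0.14 (95% interval -0.26 to 0.39), Acaca by -0.24 ± 0.10 (-0.47 to -0.01) and Acly by -0.16 ± 0.09 (-0.37 to 0.04). Acaca had an unadjusted p of 0.0401 and a limma adjusted p of 0.15. With it, 4 of the 9 genes had an unadjusted p under 0.05, beside 28.6% of all genes. Without the day 1 array of female 1, Acaca and Acly were lower by 0.35 and 0.27 and passed (limma adjusted p = 0.0273 and 0.0488), which made 5 of 9. Leaving out female 2 moved both the other way, to -0.12 for Acaca and -0.06 for Acly without the preparation and to -0.13 and -0.06 without its day 1 array. Among the elongases and Scd1, Elovl5 differed by 0.14 ± 0.06, Elovl6, which elongates palmitate to stearate, by -0.09 ± 0.10, and Scd1 by 0.05 ± 0.06.

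Scd1 lay near the top of the deposited scale. Its 12 values ran from 12.12 to 12.43, a range of 0.31, and the highest value in the table was 12.84. The 44 genes above 12 on every array had a median range of 0.17, beside 0.57 for all genes, so a change in Scd1 may be understated. The other mouse stearoyl-CoA desaturases are near copies of Scd1, and Scd2 was not analysed here. Probe sequences were not examined, so what the Scd1 probe set reads is uncertain.

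**Figure D2:**
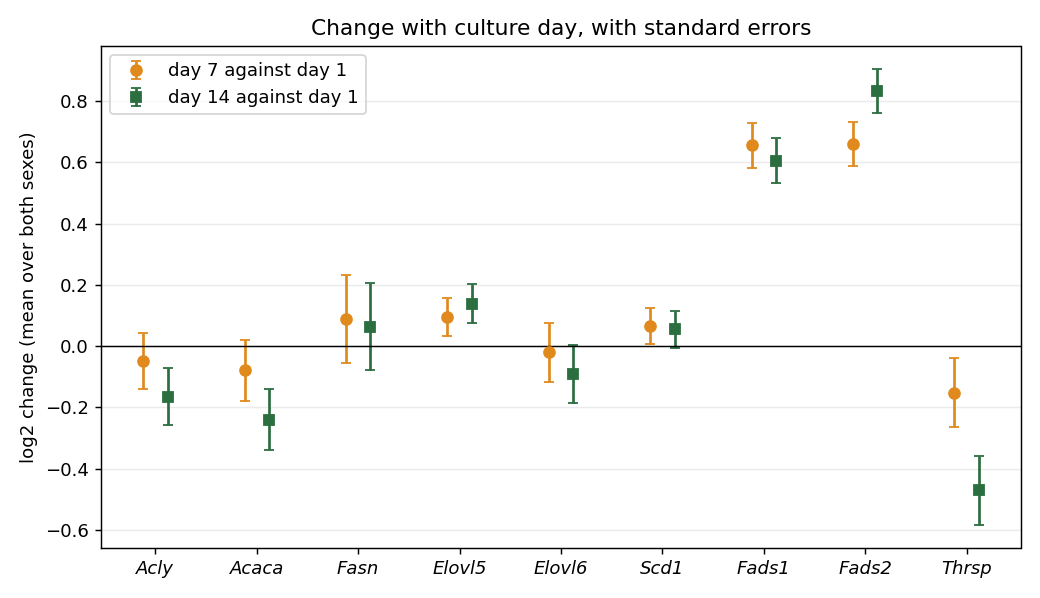
Change from day 1 to day 7 (circles) and to day 14 (squares) in log2 units, averaged over the sexes, for the 9 genes, with standard errors of the limma fit as bars. Fads1 and Fads2 stand at 0.61 to 0.83 for both days, Thrsp reaches -0.47 at day 14, and the other 6 genes stay between -0.24 and 0.14.

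The second question is how male and female cells differ. Over the 3 days, with each preparation's arrays averaged first, all 9 genes were lower in males, by 0.12 (Scd1) to 0.53 (Fasn), and 45.2% of all genes were lower in males. The median difference was -0.22, beside 0.02 over all genes. In limma 0 of the 9 passed, beside 0.177% of all genes, and 5 of 9 had an unadjusted p under 0.05, beside 19.8% of all genes. Thrsp differed by -0.52 ± 0.06 (limma adjusted p = 0.0749) and Acaca by -0.40 ± 0.07 (limma adjusted p = 0.105). With a spread that was both trended with the level and robustly estimated, 5 of the 9 passed (Acly, Acaca, Elovl6, Fads2 and Thrsp). With genes of a mean under 6 left out, 2 passed (Acaca and Thrsp). Of all genes, 974 passed with that spread and 282 with that filter, against 21 in the main fit.

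The gap was widest at day 1, where the comparison within a day was added after the data were seen. Fasn stood at 9.52 and 9.60 in the male preparations and at 10.21 and 10.86 in the female ones at day 1. It stood at 9.75 and 10.10 against 10.24 and 10.46 at day 7, and at 9.96 and 10.08 against 10.24 and 10.18 at day 14. The male and female values overlapped at no day, and from day 1 to day 14 the mean change was 0.46 in males and -0.33 in females. Acaca stood at 8.97 and 8.82 in males and 9.43 and 9.88 in females at day 1, at 8.95 and 9.12 against 9.37 and 9.35 at day 7, and at 8.96 and 9.00 against 9.10 and 9.07 at day 14. The mean change in Acaca from day 1 to day 14 was 0.08 in males and -0.57 in females. Acly stood at 10.29 and 10.16 in males and 10.45 and 10.87 in females at day 1, and at 10.29 and 10.18 against 10.33 and 10.31 at day 14, the same pattern in a narrower range.

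At day 1 both male arrays lay below both female arrays for 9 of the 9 genes, beside 20.1% of all genes. The differences ran from -0.98 ± 0.20 (Fasn, 1.97-fold) through -0.76 ± 0.14 (Acaca, 1.69-fold) to -0.19 ± 0.09 (Elovl5). In limma 0 of the 9 passed, with adjusted p-values from 0.0554 (Acaca) to 0.392 (Elovl5), beside 0.767% of all genes, and 8 of 9 had an unadjusted p under 0.05, beside 13.5% of all genes. The female 2 array at day 1 was the highest of the 12 for 6 genes (Acly, Acaca, Fasn, Elovl6, Scd1 and Thrsp), and its part in the gap was not tested beyond leaving it out. Without that array 0 of 9 passed and all 9 genes were still lower in males, by 0.65 for Fasn, 0.53 for Acaca and 0.48 for Thrsp. With the trended and robust spread 7 of 9 passed at day 1 (all but Fasn and Elovl5). Of all genes, 292 passed at day 1 with that spread, against 91 in the main fit. With genes of a mean under 6 left out 2 members passed (Acaca and Fasn), and with array weights 1 passed (Acaca). Without the female 1 array at day 1 the differences were -1.30 for Fasn, -0.98 for Acaca and -0.96 for Thrsp.

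For the 3 desaturases the difference was nearer 0 at days 7 and 14 than at day 1, though with the constant prior spread neither the gaps nor their change passed the limma test. Fads1 was lower in males by 0.47 ± 0.10 at day 1, by 0.05 ± 0.10 at day 7 and by 0.06 ± 0.10 at day 14. Fads2 was lower by 0.40 ± 0.10, 0.04 ± 0.10 and 0.05 ± 0.10, and Scd1 by 0.26 ± 0.08, 0.04 ± 0.08 and 0.05 ± 0.08. For these 3 genes the male and female arrays overlapped at days 7 and 14. For the other 6 genes both male arrays lay below both female arrays at every day, so that the count was 6 of 9 at day 7 and 6 of 9 at day 14, beside 21.7% and 20.7% of all genes. Thrsp kept the largest gap at day 14, -0.42 ± 0.16. In limma 0 of 9 passed at day 7 and 0 of 9 at day 14, beside 0.354% and 1.06% of all genes, with 2 and 1 at an unadjusted p under 0.05, beside 13.2% and 14.9%. All 9 genes were lower in males at each day, beside 45.4%, 47.8% and 46.8% of all genes at days 1, 7 and 14.

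**Figure D3:**
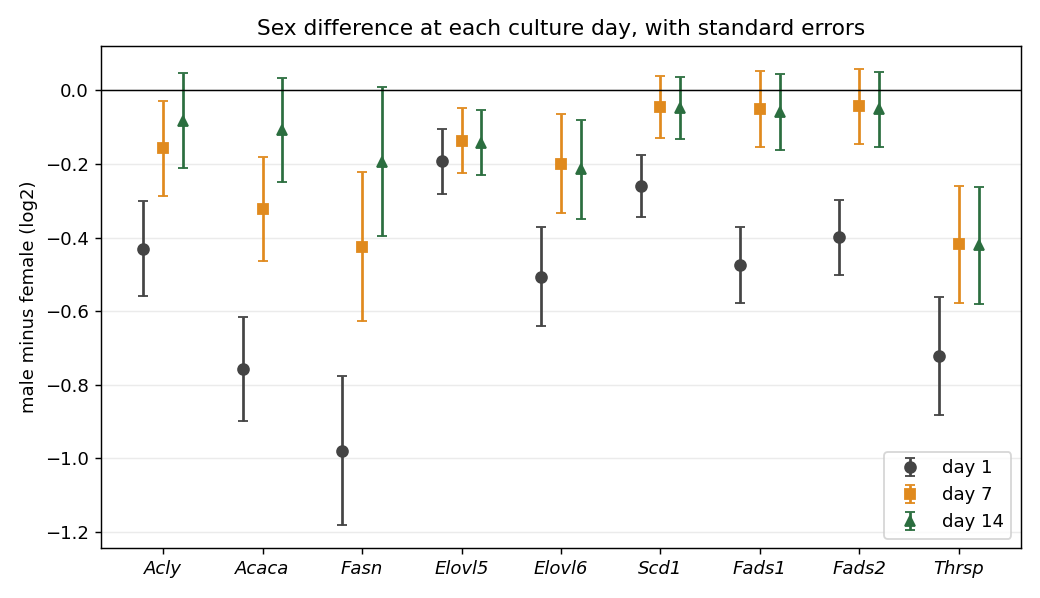
Male minus female difference in log2 units (vertical axis) at day 1 (circles), day 7 (squares) and day 14 (triangles) for the 9 genes, with standard errors of the limma fit as bars. All 27 differences are below 0, and for each gene the day 14 difference is closer to 0 than the day 1 difference.

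The male minus female difference was smaller in size at day 14 than at day 1 for 9 of the 9 genes, beside 49.4% of all genes. The SD over the 4 preparations, which takes in the gap between the sexes, was smaller at day 14 for 9 of 9, beside 47.5%. For Fasn that SD was 0.62 at day 1, 0.30 at day 7 and 0.12 at day 14, and for Acaca it was 0.48, 0.20 and 0.07. Within a sex, with 2 preparations each, the SD moved in both directions. From day 1 to day 14 the female SD went from 0.46 to 0.04 for Fasn and from 0.06 to 0.16 for Fads1. Tested as the change in males minus the change in females, all 9 values were above 0 from day 1 to day 7 and from day 1 to day 14, while 51.5% and 51.8% of all genes were below 0. Both male preparations changed more upward, or less downward, than both female preparations for 7 of 9 genes by day 7, beside 16.8% of all genes, and for 6 of 9 by day 14, beside 15.9%. In limma 0 of 9 passed either test, beside 0% of all genes. At an unadjusted p under 0.05 there were 2 of 9 for day 7, beside 4.76% of all genes, and 4 of 9 for day 14, beside 6.87%. From day 1 to day 14 the sexes differed in their change by 0.78 ± 0.29 for Fasn (limma adjusted p = 0.577), 0.65 ± 0.20 for Acaca (0.451), 0.41 ± 0.15 for Fads1 (0.557) and 0.35 ± 0.14 for Fads2 (0.685). Without female 2 the Fasn and Acaca values were 0.43 and 0.41, without its day 1 array alone 0.46 and 0.42, and without female 1 they were 1.14 and 0.89. Without male 2 the Fads2 value was 0.17, and without male 1 it was 0.52. Both tests use the same day 1 arrays as the day 1 gap, so they are not separate evidence of it.

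The summed level of the hepatocyte markers at day 1 was 15.01 to 15.04 in males and 15.09 to 15.10 in females, and 8 of the 9 markers were lower in males, with a median difference of -0.06. The widest of these was Asgr1, a hepatocyte surface receptor gene, at -0.56 ± 0.15 at day 1 and -0.36 ± 0.10 over the 3 days (limma adjusted p = 0.144 and 0.178). Fabp4 stood at 9.79 and 10.02 in males and 10.39 and 10.84 in females at day 1, and fell by 0.99 ± 0.20 by day 14 (limma adjusted p = 0.0127; 0.0938 without male 1 and 0.155 without male 2). The summed stellate cell and fibroblast markers were 11.58 to 11.68 in males and 11.63 to 11.77 in females at day 1, and 8.53 to 9.73 against 11.33 to 11.34 at day 14, with 6 of 10 lower at day 14 by the limma test, beside 6.8% of all genes. Endothelial markers were 7.92 to 8.86 in males and 8.58 to 8.90 in females at day 1 and 6.20 to 6.59 against 7.32 to 8.04 at day 14, with 3 of 5 lower. Kupffer cell markers were 7.27 to 7.92 against 6.80 to 8.21 at day 1 and 8.47 to 8.95 against 8.23 to 10.62 at day 14, with 1 of 7 higher, beside 7.59% of all genes. Cholangiocyte markers were 10.66 to 10.77 against 10.35 to 10.68 at day 1 and 10.36 to 10.58 against 10.03 to 10.45 at day 14, with 2 of 4 higher. The part of these cells in the results on the lipogenic genes was not tested.

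Across the 12 arrays the 9 profiles differed in how closely they ran together. Pearson's r was 0.953 for Fads1 with Fads2, 0.944 for Acly with Acaca, 0.938 for Acaca with Elovl6 and 0.904 for Fasn with Elovl6. By contrast Fads2 gave -0.244 with Thrsp and -0.005 with Acaca. These are descriptions over arrays that share preparations and days. Acly, Acaca, Fasn, Elovl6 and Thrsp had r of 0.719 or more with each other, while Fads1 and Fads2 gave 0.477 and 0.384 with Fasn and 0.734 and 0.739 with Elovl5.

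**Figure D4:**
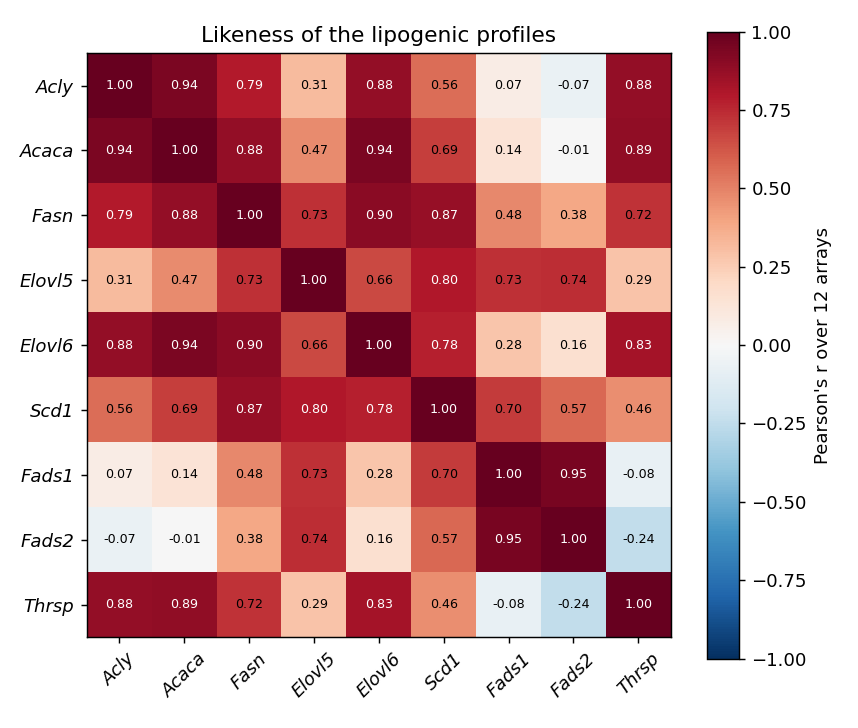
Pearson's r between the 9 profiles over the 12 arrays, with red for values above 0 and blue for values below 0. Acly, Acaca, Fasn, Elovl6 and Thrsp share high values, and Fads1 and Fads2 pair at 0.953 but stand at 0.137 and -0.005 with Acaca.

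Outside the list, the genes whose profiles were most like a member's were found for members with a range of at least 1 over the arrays. For Fads2 these were Habp2 (r = 0.974), Atp9a (0.967) and Dbi (0.965), the last an acyl-CoA binding protein. For Thrsp they were Pdk1 (0.967), which restrains pyruvate dehydrogenase, Morc4 (0.955) and the gluconeogenic enzyme gene Fbp1 (0.946). For Fasn they were Cyp2d40 (0.954), Cyp2b13 (0.944) and Sp9 (0.921), and for Acaca Gda (0.945), Sult2a1 (0.932) and Cyp3a41b (0.914). The Cyp and Sult genes have near copies, so their probe sets are uncertain. Cyp2b13, Sp9, Cyp3a41b and Sult2a1 lay toward the lower end of the deposited scale, with mean levels from 4.55 (Cyp2b13) to 5.73 (Sult2a1). Every gene named for Fasn or Acaca was lower in males over the 3 days, from -0.19 (Gda) to -2.54 (Cyp3a41b). The part of the gap between the sexes in these r values was not tested. For the mean of all 9 members, each centred, the most similar genes were Pklr (0.964), the liver pyruvate kinase gene, Cyp2b13 (0.942) and Slc17a3 (0.936).

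Among regulators of the pathway, 3 of 15 measured genes were higher and 1 was lower at day 14 than at day 1, beside 7.59% higher and 6.8% lower over all genes. Their median change was -0.05, beside 0.01 over all genes. The 1 that fell was Mlxipl, which encodes ChREBP. Mlxipl stood at 9.78, 10.10, 10.32 and 10.38 at day 1 in male 1, male 2, female 1 and female 2, at 9.61, 9.69, 10.03 and 9.88 at day 7 and at 9.21, 9.26, 9.56 and 9.33 at day 14. All 4 values at day 14 lay below all 4 at day 1, and the share of all genes with such a separation is not given here. Mlxipl fell by 0.80 ± 0.09 (limma adjusted p = 0.00103), and the call held without any 1 preparation (0.0158 to 0.0261). The nuclear receptor genes Pparg, Nr1h3 (LXR alpha) and Rxra rose by 0.61 ± 0.12, 0.31 ± 0.08 and 0.22 ± 0.06 (limma adjusted p = 0.0117, 0.0386 and 0.0371). Pparg lost its call without male 1, male 2 or female 2 (limma adjusted p = 0.148, 0.0613 and 0.0741), and Nr1h3 and Rxra lost theirs without any 1 preparation (0.078 to 0.262 and 0.164 to 0.222) and with the preparation as a block (0.0608 and 0.064). Leaving out a single array took the call from Nr1h3 in 8 of 12 cases and from Rxra in 12 of 12. Of the genes that hold or carry SREBP in its membrane, Insig1 differed by -0.27 ± 0.08, Scap by -0.24 ± 0.08 and Insig2 by -0.17 ± 0.12, and none of these 3 passed in limma (adjusted p = 0.0569, 0.0779 and 0.397). At day 1 Mid1ip1, which encodes a relative of Spot 14 that binds acetyl-CoA carboxylase, was lower in males by 0.49 ± 0.08 (limma adjusted p = 0.0326, 0.139 to 0.397 with any 1 preparation left out and 0.0511 to 0.199 with any 1 array left out).

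Of 10 measured genes that supply carbon or act in other synthesis steps, 0 were higher and 1 lower at day 14, where 14.4% of all genes passed in either direction. The same 14.4% stands beside the counts of elongation, desaturation and NADPH genes that follow. Acss2, which makes acetyl-CoA from acetate in the cytosol, fell by 0.48 ± 0.10 (limma adjusted p = 0.0136). Its call was lost without male 1, male 2 or female 2 (limma adjusted p = 0.167, 0.0892 and 0.0567). Acacb, the carboxylase at the mitochondrial surface, differed by -0.14 ± 0.09 and did not pass. Of 14 other elongation and desaturation genes, 1 was higher and 0 lower: Elovl7 rose by 0.67 ± 0.14 (limma adjusted p = 0.0156), and lost the call without male 1, male 2 or female 2 (0.111, 0.124 and 0.0837), without the day 14 array of male 1 (0.0553) and without the day 1 array of male 2 (0.0545). The desaturase relatives Fads3 and Fads6, named after their values were seen, differed by 0.02 ± 0.07 and 0.24 ± 0.07, and neither passed (limma adjusted p = 0.898 and 0.0524). Of 5 genes of NADPH supply and the pentose phosphate pathway, 1 was higher, Taldo1 by 0.20 ± 0.06 (limma adjusted p = 0.0445). Its call was lost without any 1 preparation, without any 1 array and with the block (limma adjusted p = 0.0778). The malic enzyme gene Me1 differed by -0.22 ± 0.07 (limma adjusted p = 0.0693).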

How the data were processed

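Values are the deposited log2 levels of 13081 probe sets on 12 arrays. The submitters' processing notes name RMA, Transcriptome Analysis Console 4.0 and Partek 7.0 without their roles. For the build, annotation and filters: not given in the sources used here. Each deposited log2 value was used as given, and every probe set reached at least 4.79 on at least 1 array. RMA compresses the highest and lowest values, so changes there may be understated. A gene symbol was held by 11889 probe sets, all matched to the RefSeq gene list (GRCm38.p6), and where a symbol had more than 1 probe set (19 symbols) that of highest mean stood for it, leaving 11861 genes. There were 0 unused columns of per-sample values.

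Groups came from the labels. Tests used R 4.3.3 with limma 3.58.1 (eBayes with a constant prior spread, no robust option) and 1 mean per group of sex and day. Day comparisons average the change in males and that in females. Sex differences subtract the female from the male mean. Across days, the sexes were compared on the mean of each preparation's 3 arrays. Tests were two-sided, with Benjamini-Hochberg adjustment over all genes and a threshold of 0.05. The procedure was tested on simulated data. Each preparation gave an array on every day, per the labels, so its number pairs the arrays, and deviations from group means correlated between days at 0.036 to 0.324. Fits with that block were run as an alternative.

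The members and the lists of other genes were chosen with earlier results of these data known. All members were named. Of each other list, the text could name up to 3 genes that passed, by size of change, or 1 where none passed, with Mlxipl, Nr1h3, Insig1, Insig2, Scap, Me1, Acacb and Scd2. Comparisons of the sexes within a day and the leaving out of single arrays were added after the data were seen. Profiles were compared by Pearson's r with named genes.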

Additional observations from a re-analysis of the deposited data

Results flagged for a closer look

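In 4 instances both male preparations were higher at the later day and both female preparations lower. Some of these changes were close to 0, and the share of all genes with such a split was not counted. The change in males minus the change in females was 0.35 for Acly from day 1 to day 14, 0.31 for Elovl6 from day 1 to day 7, and 0.22 and 0.21 for Scd1 from day 1 to day 7 and to day 14. Each difference was tested in limma and none passed (adjusted p = 0.814, 0.99, 0.99 and 0.833). For Acly the male changes were 0.00 and 0.02, and for Elovl6 they were 0.00 and 0.27, with -0.01 and -0.34 in the female preparations. No array of a day stood apart from the other 3 by Dixon's criterion in 27 groups of 4, each a member on 1 day with both sexes together. A gap between the sexes widens such a group, so the criterion could hardly single out 1 array.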

How the results depend on the processing

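Alternatives were a replicate block, a trended and robust spread, arrays centred on a common median, a second quantile normalization, a mean of at least 6, array quality weights, every probe set tested, and each preparation or single array left out. Pairing comes from the labels, since each preparation was sampled on every day. With the block the counts of genes were 101 (day 14 against day 7, 58 without it) and 1 (sex difference in the change to day 14, 0 without it), and Thrsp at day 14 was the only member whose call changed. With the trended and robust spread 956 genes passed for day 7 against day 1, 309 for day 14 against day 7, 974 for the sexes with days averaged, 292, 178 and 411 for sex at days 1, 7 and 14, and 14 for the sex difference in the change to day 14. Members past the threshold were then 5 over all days and 7 at day 1. With a mean of at least 6, 103 genes passed for day 14 against day 7, 282 for the sexes with days averaged and 70 at day 7. Members past the threshold were then 2 over all days (Acaca and Thrsp) and 2 at day 1 (Acaca and Fasn). With array weights 81 genes passed for sex at day 14, and 1 member (Acaca) at day 1. With the second quantile normalization the Scd1 change from day 7 to day 14 was 0.0039, not -0.01.

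Leaving out 1 preparation or array gave 40 to 513 genes for day 7 against day 1 and 0 to 66 for day 14 against day 7. It gave 494 to 1613 genes for day 14 against day 1, and 3 to 26 for sex over all days. Sex at days 1, 7 and 14 gave 3 to 85, 4 to 45 and 8 to 182, and the sex difference in the change to day 14 gave 0 to 17. Members numbered 0 to 2 at day 7, 2 to 5 at day 14 and 0 to 3 for sex at day 1. Changes near 0 turned sign in this way. From day 1 to day 7 Acly ran from -0.153 to 0.055, Acaca from -0.195 to 0.0386, Fasn from -0.0740 to 0.25 and Elovl6 from -0.116 to 0.0748. From day 7 to day 14 Fasn ran from -0.114 to 0.0652, Scd1 from -0.0409 to 0.0202 and Fads1 from -0.11 to 0.0046. From day 1 to day 14 Fasn ran from -0.11 to 0.24 and Elovl6 from -0.19 to 0.0049. The sex difference ran from -0.10 to 0.0071 (Scd1) and -0.10 to 0.0172 (Fads2) at day 7, and from -0.11 to 0.0129 (Scd1), -0.17 to 0.0504 (Fads1) and -0.13 to 0.03 (Fads2) at day 14. The sex difference in the change ran from -0.0584 to 0.17 for Elovl5 to day 7, and from -0.0790 to 0.18 (Elovl5) and -0.0947 to 0.69 (Thrsp) to day 14. Leaving out a preparation leaves 1 array in each of 3 groups, which is assumed to vary like the others. Where fewer arrays entered, fewer degrees of freedom remained, and other causes were not tested. The number of arrays limits the precision, and no signal over background was available.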

Other observations

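Genes that store fatty acids moved in both directions. Of 17 measured genes of triglyceride synthesis and lipid droplets, 6 were higher and 3 lower at day 14 than at day 1 by the limma test, beside 14.4% of all genes, with a median change of 0.11 beside 0.01 over all genes. Cidec, which drives fusion of lipid droplets, rose by 1.54 ± 0.19 (limma adjusted p = 0.00145, and 0.0153 to 0.0292 with any 1 preparation left out). It stood at 4.61, 3.85, 3.58 and 3.04 at day 1 in male 1, male 2, female 1 and female 2 and at 5.38, 5.42, 5.13 and 5.30 at day 14, close to the lower end of the deposited scale. Its relative Cidea fell by 0.86 ± 0.14 (limma adjusted p = 0.00549; 0.0989 without male 1 and 0.0793 without male 2). Plin5, a coat protein of lipid droplets in oxidative tissues, rose by 0.65 ± 0.12 (limma adjusted p = 0.0079; 0.0572, 0.0731 and 0.0634 without male 1, male 2 or female 1).

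Of 8 other target genes of LXR, 4 were higher and 0 lower at day 14, beside 7.59% and 6.8% of all genes, with a median change of 0.16 beside 0.01. Lpl, the lipase that frees fatty acids from lipoproteins, rose by 0.90 ± 0.10 (limma adjusted p = 0.000902, and 0.0102 to 0.0307 with any 1 preparation left out). The sterol exporter gene Abcg1 rose by 0.90 ± 0.15 (limma adjusted p = 0.00599; 0.0703 without male 1 and 0.0887 without male 2). Of 16 cholesterol synthesis genes, 0 were higher and 3 lower at day 14, beside the same shares, with a median change of -0.14. These were Idi1, Msmo1 and Mvd, at -0.40 ± 0.11, -0.33 ± 0.07 and -0.28 ± 0.08 (limma adjusted p = 0.0382, 0.0134 and 0.0475), and all 3 calls were lost without any 1 preparation (0.0567 to 0.233, 0.0573 to 0.138 and 0.0629 to 0.321). With the preparation as a block Mvd did not pass either (limma adjusted p = 0.0723), and leaving out 1 array took the call from Idi1 in 9 of 12 cases and from Mvd in 11 of 12. Over the 3 days 45.2% of all genes were lower in males, 0.177% passed and 19.8% had an unadjusted p under 0.05. All 16 cholesterol genes were lower in males over the 3 days, with a median difference of -0.19, and 0 passed the limma test, with 5 at an unadjusted p under 0.05. Of 6 glycolytic targets of ChREBP, 0 passed the limma test between day 1 and day 14. At an unadjusted p under 0.05 there were 4 of 6, beside 28.6% of all genes. The 6 changes went both ways, with 3 below 0 and a median of -0.01, beside 0.01 over all genes. All 6 were lower in males over the 3 days, with a median difference of -0.29, and 0 passed, with 5 at an unadjusted p under 0.05. Other lists were less uniform: lower in males were 7 of 8 LXR targets, 4 of 5 NADPH genes and 7 of 10 carbon supply genes. The counts were 11 of 17 for storage genes, 9 of 15 for regulators, 8 of 14 for other elongation and desaturation genes and 4 of 13 for insulin signalling. Of 13 insulin signalling genes, 0 passed the limma test between day 1 and day 14, with 2 at an unadjusted p under 0.05, beside 28.6% of all genes.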
